A study of Mus musculus with 18 samples.

Results

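The genes described here are 10 members of the membrane-spanning 4-domain subfamily A (MS4A): Ms4a4a, Ms4a4b, Ms4a4c, Ms4a4d, Ms4a6b, Ms4a6c, Ms4a6d, Ms4a7, Ms4a8a and Ms4a14. They were chosen by name from the 20615 genes of the deposited table, and all 10 were among the 15789 genes with enough reads to be tested. RNA sequencing was done on bone marrow-derived macrophages (BMDMs), which are macrophages grown in culture from marrow, of female mice aged 7 to 12 weeks. The mice were C57BL/6 (B6) controls or C57BL/6.NOD-Aec1Aec2, a Sjögren's syndrome-susceptible strain (SjSS) that carries NOD intervals on the B6 background. BMDMs of both strains were studied under the same 3 conditions: untreated cultures (control), cultures fed apoptotic cells (AC), and cultures with CpG-oligodeoxynucleotides (CpG), which stimulate toll-like receptor 9. The AC were thymocytes killed with dexamethasone, added at 5 per BMDM for 2 h and washed off, after which the labels give a further 3 h of culture and the study's methods text a different length. CpG was used at 1 µM for 6 h, so that AC and CpG samples differ in time as well as in stimulus. There were 3 samples in each of the 6 groups, 18 in all, and which strain's thymocytes were fed to which BMDMs for sequencing was not given in the sources used here.

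MS4A proteins cross the membrane several times and are thought to work mainly as partners of other receptors in the membrane. The best known are CD20 of B cells, encoded by Ms4a1, and the beta chain of the high-affinity IgE receptor, encoded by Ms4a2, while several others are typical of macrophages. MS4A4A associates with the fungal receptor Dectin-1 in macrophages, MS4A6D with the complement receptor VSIG4, and MS4A4B with the costimulatory receptor GITR in T cells. In humans, variation in the MS4A locus is associated with the level of soluble TREM2, a receptor of myeloid cells.

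All 10 genes lie in 1 cluster of 537.4 kb on chromosome 19 (mm10, positions 11067471 to 11604850), with 6 on the plus strand and 4 on the minus strand. The NOD intervals of this strain lie on other chromosomes. From left to right the order is Ms4a8a, Ms4a14, Ms4a7, Ms4a4a, Ms4a4c, Ms4a4b, Ms4a6c, Ms4a6b, Ms4a4d and Ms4a6d. Ms4a4c runs from 11404770 to 11427247 and its neighbour Ms4a4b from 11443553 to 11463550, both on the plus strand. Ms4a6c (11469366 to 11482193) and Ms4a6b (11516512 to 11531257) follow on the same strand. Ms4a4a (11375523 to 11392791) is also on the plus strand, and Ms4a7 (11321039 to 11336147) and Ms4a6d (11586604 to 11604850) are on the minus strand. Near-identical stretches matter for how reads are shared out between such genes. Among the members, only Ms4a4b and Ms4a4c had any exon stretch of 100 bases, about a read length, in common, at 29 positions that make up 1.66% of those in Ms4a4c and 0.327% of those in Ms4a4b. Ms4a6c overlaps BE692007 on the opposite strand, which shares 45.8% of its positions and held 13.8% as many reads as Ms4a6c. Whether the counting used strand was not given in the sources used here, so reads of these 2 genes may be mixed. Shorter stretches, of 50 bases, were also shared by Ms4a6b with Ms4a6c (117 positions) and with Ms4a6d (40). Estimated counts were not whole in all 18 samples for Ms4a6b and Ms4a6c, in 16 for Ms4a7 and in 15 for Ms4a6d. For Ms4a4b and Ms4a4c this held in 10 samples. How many reads were shared out between members was not tested.

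Promoter windows of 300 bases were found in the RefSeq table (GRCm38.p6) for 9 of the 10 members, with 2 windows for Ms4a7, and none for Ms4a6d. The windows of both neighbour pairs are shown because these were the most alike of all pairs and hold the gene with the largest fold change, Ms4a4c. Each runs from 250 bases before to 50 bases after the RefSeq start of the gene. Capitals mark the core of interferon regulatory factor (IRF) sites, GAAANNGA, and of PU.1 sites, GAGGAA, on either strand. PU.1 is the factor that specifies the myeloid lineage, and IRF proteins act downstream of interferons and toll-like receptors.
Ms4a4c, chr19:11407411-11407710, plus strand: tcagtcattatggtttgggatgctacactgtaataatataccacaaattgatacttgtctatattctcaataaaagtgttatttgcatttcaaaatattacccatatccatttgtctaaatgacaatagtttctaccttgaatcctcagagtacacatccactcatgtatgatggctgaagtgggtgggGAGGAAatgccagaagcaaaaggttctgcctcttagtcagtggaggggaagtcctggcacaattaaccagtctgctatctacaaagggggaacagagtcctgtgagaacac
Ms4a4b, chr19:11443308-11443607, plus strand: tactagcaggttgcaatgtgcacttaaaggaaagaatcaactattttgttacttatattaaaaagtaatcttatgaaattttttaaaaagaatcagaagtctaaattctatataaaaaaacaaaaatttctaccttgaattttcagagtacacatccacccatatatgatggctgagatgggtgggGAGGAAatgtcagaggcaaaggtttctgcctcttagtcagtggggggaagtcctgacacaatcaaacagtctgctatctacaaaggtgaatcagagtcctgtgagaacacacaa
Ms4a6c, chr19:11469118-11469417, plus strand: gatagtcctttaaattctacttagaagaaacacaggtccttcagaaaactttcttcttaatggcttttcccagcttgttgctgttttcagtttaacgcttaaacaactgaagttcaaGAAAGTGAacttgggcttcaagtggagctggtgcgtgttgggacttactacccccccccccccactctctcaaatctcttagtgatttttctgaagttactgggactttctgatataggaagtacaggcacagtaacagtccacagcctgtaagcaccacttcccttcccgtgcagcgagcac
Ms4a6b, chr19:11518309-11518608, plus strand: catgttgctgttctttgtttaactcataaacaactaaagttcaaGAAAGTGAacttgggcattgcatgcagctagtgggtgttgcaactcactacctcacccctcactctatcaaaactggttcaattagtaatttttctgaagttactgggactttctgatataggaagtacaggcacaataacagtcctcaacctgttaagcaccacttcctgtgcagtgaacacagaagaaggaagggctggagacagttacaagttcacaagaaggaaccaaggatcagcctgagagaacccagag

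The Ms4a4c and Ms4a4b windows had 226 identical bases, 72.9% of their alignment, and both held GAGGAA, at positions -61 to -56 and -64 to -59 relative to the start. The Ms4a6c and Ms4a6b windows had 192 identical bases, 51.2% of their alignment, little above the next pair at 50.5%. Both held the same 8 letters GAAAGTGA, at positions -133 to -126 in Ms4a6c and -206 to -199 in Ms4a6b. Over the 10 windows of the family, 5 held the IRF core, against 21.0% of the 32851 windows in the table, and 4 held the PU.1 core, against 28.3%. None held the longer interferon-stimulated response element, the IRF core followed by AA, which 3.44% of all windows hold, nor the gamma-activated site TTCNNNGAA, which 8.30% hold. An AP-1 site, TGANTCA, was in 4 of the 10 windows, against 7.81% of all, and an NF-kB site, GGGA and CC with 4 bases between them, in 3, against 20.7%. The last motifs searched, all on both strands, were C/EBP (TTGCNNAA), which was in 1 of the 10 windows against 10.8%, and the TATA box (TATAAA), in 2 against 13.6%. These matches of letters are a description and not evidence that a factor binds. In the table of counts, Ms4a4c and Ms4a6b start 5′ of these RefSeq starts, so for these genes the window may not be the start used in BMDMs.

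Library depth was 30688336 to 57139662 estimated reads assigned to genes, with a median of 47912525. Levels are given as CPM, the counts scaled to the size of the library, with TMM scaling, and as CPM per kb of exon where genes are compared with each other. All 8 macrophage markers examined (Adgre1, Itgam, Csf1r, Cd68, Fcgr1, Mertk, Lyz2 and Cd14) were present in every group, with summed levels of 15105 to 23748 CPM per sample. The defining T-cell genes Cd3d, Cd3e and Cd3g averaged at most 0.110 CPM in any group, including the groups that had been given thymocytes. That highest value was Cd3g in SjSS AC, against 0.0243 CPM in SjSS control. Other T-lineage genes moved in both directions after AC and are given beside Ms4a4b below. Genes were counted as changed at an adjusted p under 0.05, and as called at that threshold together with a log2 fold change above 1.3 in size.

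In untreated BMDMs of either strain, 4 members made up most of the family's RNA. Per kb of exon in B6, Ms4a7 stood at 112 ± 2.40 CPM per kb (SD, n = 3), Ms4a4a at 105 ± 8.14, Ms4a6d at 99.8 ± 7.01 and Ms4a6c at 82.8 ± 5.60. Samples of the first 3 overlapped in neighbouring pairs, so that their order was not resolved, while Ms4a6c lay below Ms4a6d in every sample. Then came Ms4a6b at 13.95 ± 0.446, Ms4a14 at 9.38 ± 1.24 and Ms4a4c at 2.51 ± 0.462 CPM per kb, with no overlap between neighbours. Ms4a4d, Ms4a8a and Ms4a4b were each under 0.1 CPM per kb. Control SjSS cells had a similar order, with Ms4a7 at 100.1 ± 5.36, Ms4a6d at 91.7 ± 5.12, Ms4a4a at 83.2 ± 6.86 and Ms4a6c at 81.6 ± 4.83 CPM per kb, where neighbouring pairs overlapped.

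The order changed with the stimulus. After AC in SjSS, Ms4a6c (208 ± 12.5 CPM per kb) and Ms4a6d (189 ± 9.83) came first, with overlapping samples, and Ms4a4c moved from the seventh to the fifth place with 60.3 ± 7.72 CPM per kb. It then lay above Ms4a6b (36.1 ± 2.28) in every sample. CpG in B6 put Ms4a6c at 324 ± 14.7 and Ms4a6d at 304 ± 15.8 CPM per kb, and here Ms4a7 fell back to the fourth place at 145 ± 4.66. As a share of the family's summed level per kb, Ms4a4c went from 1.06% ± 0.0574 in SjSS control to 7.43% ± 0.688 after AC, against 0.593% ± 0.127 and 1.78% ± 0.700 in B6. Exon lengths here join all annotated transcripts of a gene, so that a gene with long unused exons, such as Ms4a4b with 8780 bases, is set too low.

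**Figure D1:**
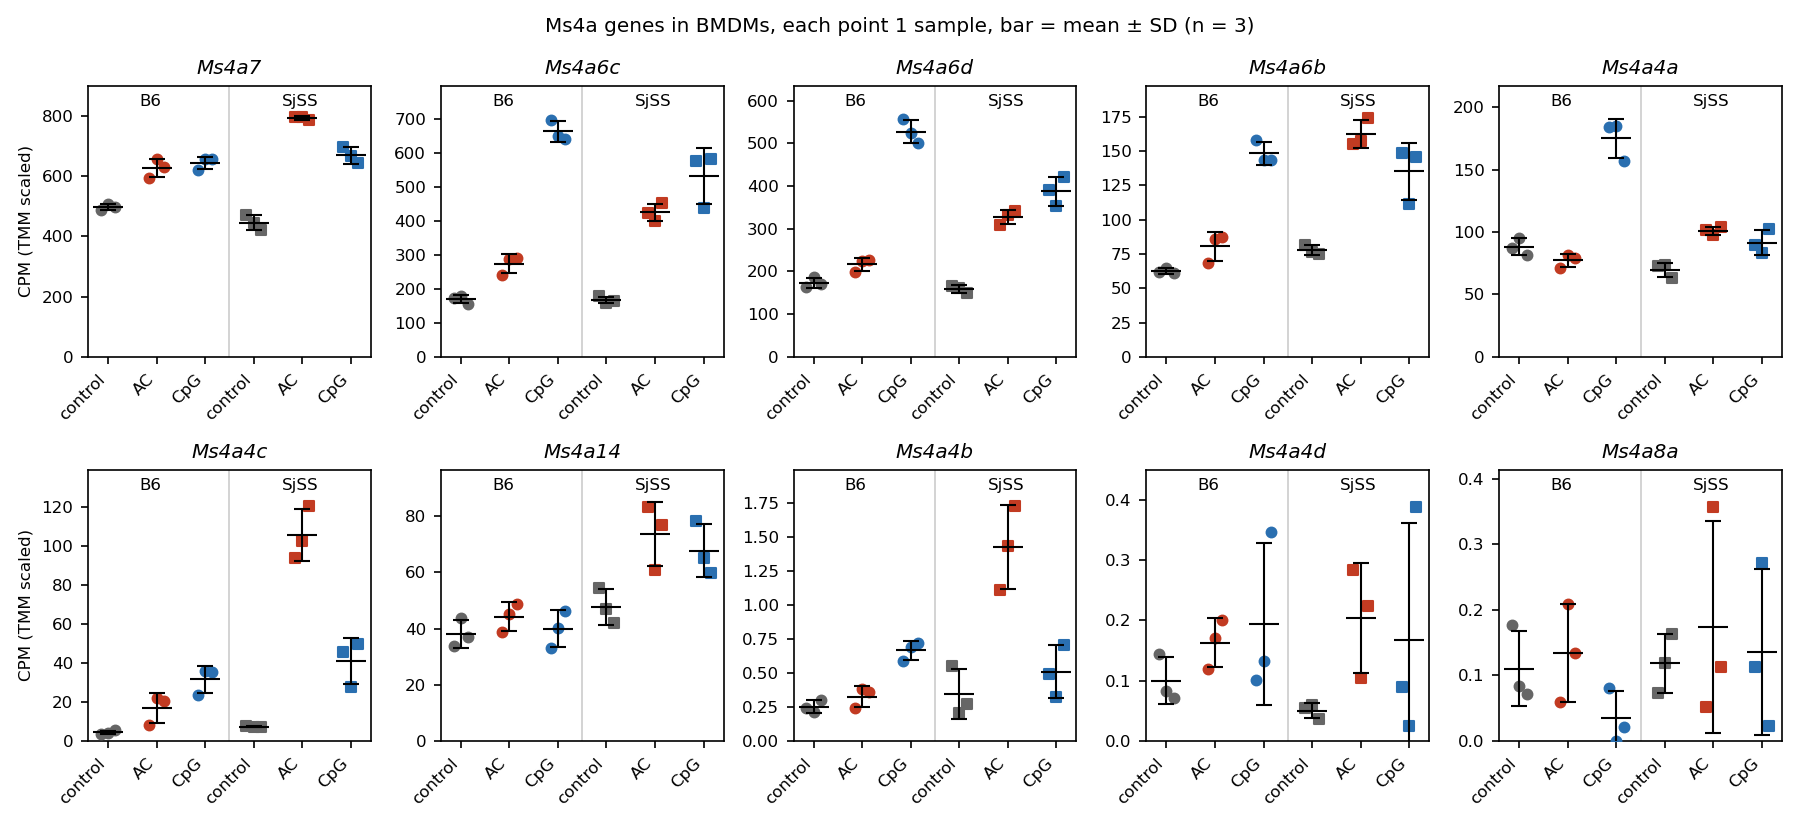
Levels of the 10 Ms4a genes in CPM (TMM scaled, each panel with its own axis from 0) in control, AC and CpG samples of B6 (circles) and SjSS (squares). Each point is 1 sample and the bars are the mean ± SD of 3. All 3 SjSS AC samples of Ms4a4c lie above every other sample, while CpG in B6 gave the highest levels of Ms4a4a, Ms4a6c and Ms4a6d.

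The first question was how BMDMs of each strain respond to AC. In SjSS, 9 of the 10 members rose, the exception being Ms4a8a, while 28.6% of all tested genes rose by the same test. In B6, 5 rose (Ms4a4c, Ms4a6b, Ms4a6c, Ms4a6d and Ms4a7) against 20.0% of all genes, and none fell in either strain. With the fold threshold, 4 members were called higher in SjSS (Ms4a4b, Ms4a4c, Ms4a4d and Ms4a6c), where 7.09% of all genes were, and in B6 only Ms4a4c, where 2.43% were. The median log2 fold change of the members was 1.05 in SjSS and 0.35 in B6, beside medians of -0.02 and 0.00 over all genes. In these bulk samples, more RNA per cell and more cells that express a gene cannot be told apart.

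Ms4a4c, a member found in several leukocyte types, changed most. Its levels were 3.76, 4.13 and 5.31 CPM in B6 control and 8.24, 21.9 and 20.6 CPM in B6 AC samples. In SjSS they were 7.44, 7.04 and 7.29 CPM in control and 94.0, 103 and 120 CPM in AC samples. The groups did not overlap in either strain, and 1 of the 3 B6 AC samples was well below the other two. The fold change was 14.5 in SjSS (95% interval 9.51 to 22.2, log2 3.86 ± 0.29 SE, edgeR adjusted p = 1.06e-09) and 3.84 in B6 (2.5 to 5.91, log2 1.94 ± 0.30, edgeR adjusted p = 3.68e-05). Leaving out any 1 sample kept the B6 value between 1.70 and 2.27 on the log2 scale.

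Ms4a4b, best known from T cells, rose in SjSS from 0.553, 0.207 and 0.272 CPM to 1.11, 1.43 and 1.73 CPM. In B6 it went from 0.240, 0.209 and 0.302 CPM to 0.238, 0.378 and 0.357 CPM, with overlapping samples. These are low levels, resting on 7 to 77 reads per sample over the whole series. The SjSS change was 4.01-fold (2.40 to 6.69, edgeR adjusted p = 7.12e-05), and the B6 change of 1.29-fold (0.725 to 2.29, edgeR adjusted p = 0.513) was not distinguishable from none. Reads of Ms4a4b amounted to a median of 3.73% of those of Ms4a4c in SjSS control, 1.40% in SjSS AC, 5.70% in B6 control and 1.73% in B6 AC samples. The part of reads from Ms4a4c in the Ms4a4b values was not tested.

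Since the AC were thymocytes, T-lineage genes were read beside Ms4a4b. The summed level of 20 such genes was 71.1 to 86.7 CPM in B6 control, 27.3 to 34.4 CPM in B6 AC, 64.8 to 81.6 CPM in SjSS control and 44.7 to 49.1 CPM in SjSS AC samples. Most of it was Cd28, which averaged 70.1 CPM in B6 control and 23.8 CPM in B6 AC, and 58.7 and 29.0 CPM in SjSS. Cd4, which macrophages can also express, averaged 8.60 and 3.57 CPM in B6 and 10.3 and 13.97 CPM in SjSS. The other 18 genes went the opposite way to Cd28, in a sum chosen after the values were seen. They summed to 1.38 to 2.20 CPM in B6 control and 2.96 to 4.32 CPM in B6 AC, and to 1.63 to 2.41 CPM in SjSS control and 3.81 to 5.09 CPM in SjSS AC samples. CpG samples, which were given no thymocytes, also lay above control, at 3.45 to 4.09 CPM in B6 and 2.54 to 3.04 CPM in SjSS. Most of this CpG difference was 1 gene, Ccr9. It averaged 0.193 CPM in control, 0.358 CPM in AC and 1.72 CPM in CpG samples of B6. In SjSS its averages were 0.217, 0.743 and 0.993 CPM. Of the 8 T-lineage genes tested, 2 rose and 2 fell after AC in B6, with a median log2 fold change of 0.48, and 3 rose and 1 fell in SjSS, with a median of 0.79. By the same test, 20.0% of all genes rose and 18.3% fell in B6, and 28.6% rose and 29.4% fell in SjSS. Lck, a kinase of the T-cell receptor, averaged 0.155 CPM in SjSS control and 0.651 CPM in SjSS AC, against 0.132 and 0.264 CPM in B6. Rag1, which marks immature thymocytes, averaged 0.163 CPM in B6 AC and 0.0231 CPM in SjSS AC and was at 0 in both control groups. Their part in the Ms4a4b result was not tested.

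The 3 Ms4a6 genes rose together in both strains and by more in SjSS. Ms4a6c was at 174, 179 and 157 CPM in B6 control and at 243, 289 and 292 CPM in B6 AC samples. The SjSS values were 178, 159 and 165 CPM in control and 426, 401 and 453 CPM in AC samples. Every AC sample exceeded every control sample of its strain, by 1.62-fold in B6 (1.41 to 1.86, edgeR adjusted p = 1.15e-05) and 2.55-fold in SjSS (2.21 to 2.93, edgeR adjusted p = 4.95e-10). With reads of the antisense neighbour BE692007 added, an alternative chosen after the values were seen, the log2 fold changes were 0.69 and 1.39, against 0.69 and 1.35 without.

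Ms4a6d went from 163, 187 and 170 CPM to 199.5, 223 and 227 CPM in B6. In SjSS it went from 167, 161 and 149 CPM to 308, 332 and 342 CPM. Again AC and control samples did not overlap, and the fold changes were 1.25 (1.12 to 1.39) and 2.06 (1.85 to 2.29), with edgeR adjusted p = 0.00166 and 4.53e-10. Ms4a6b, the less abundant of the 3, was at 62.0, 64.8 and 61.0 CPM in B6 control and 68.5, 85.6 and 87.4 CPM in B6 AC, a 1.29-fold rise (1.12 to 1.48, edgeR adjusted p = 0.00614). In SjSS its levels of 81.8, 76.7 and 74.8 CPM became 155, 158 and 174 CPM, a 2.08-fold rise (1.81 to 2.40, edgeR adjusted p = 2.05e-08).

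Ms4a7, a marker of mature macrophages, rose in both strains. Its levels of 487, 508 and 498 CPM in B6 control became 594, 656 and 630 CPM after AC, 1.26-fold higher (1.17 to 1.36, edgeR adjusted p = 5.74e-05). In SjSS, 471, 444 and 423 CPM became 796, 798 and 787 CPM, 1.78-fold higher (1.65 to 1.92, edgeR adjusted p = 1.00e-10). The AC samples of SjSS thus lay above those of B6 although its control samples lay below.

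Ms4a4a, the Dectin-1 partner, was the one abundant member whose AC response went in opposite directions by its estimates. In B6 it was at 87.0, 95.3 and 81.9 CPM in control and 71.4, 81.3 and 79.5 CPM in AC samples. SjSS samples had 72.5, 73.2 and 62.9 CPM in control and 101, 97.3 and 104 CPM after AC. All B6 AC samples were below the B6 controls, but the change of 0.879-fold (0.777 to 0.994, edgeR adjusted p = 0.0944) did not pass the test, whereas the 1.45-fold rise in SjSS did (1.28 to 1.64, edgeR adjusted p = 2.29e-05).

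Ms4a14, a little-studied member, had 33.7, 43.6 and 37.1 CPM in B6 control and 38.8, 45.3 and 48.8 CPM in B6 AC, where samples overlapped (1.16-fold, 0.946 to 1.43, edgeR adjusted p = 0.252). In SjSS, 54.6, 46.8 and 41.8 CPM became 83.2, 61.0 and 76.9 CPM, a 1.54-fold rise (1.26 to 1.89, edgeR adjusted p = 0.000842). The remaining pair, Ms4a4d and Ms4a8a, had at most 17 reads in any sample. Ms4a4d passed the test in SjSS at 3.95-fold (1.22 to 12.8, edgeR adjusted p = 0.0430), but leaving out 1 sample ended the call in 5 of 6 fits, and so did testing without a filter on low counts. Ms4a8a was at 1.5-fold in SjSS (0.481 to 4.66) and 1.19-fold in B6 (0.381 to 3.73), too wide to tell a change from none at this depth.

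**Figure D2:**
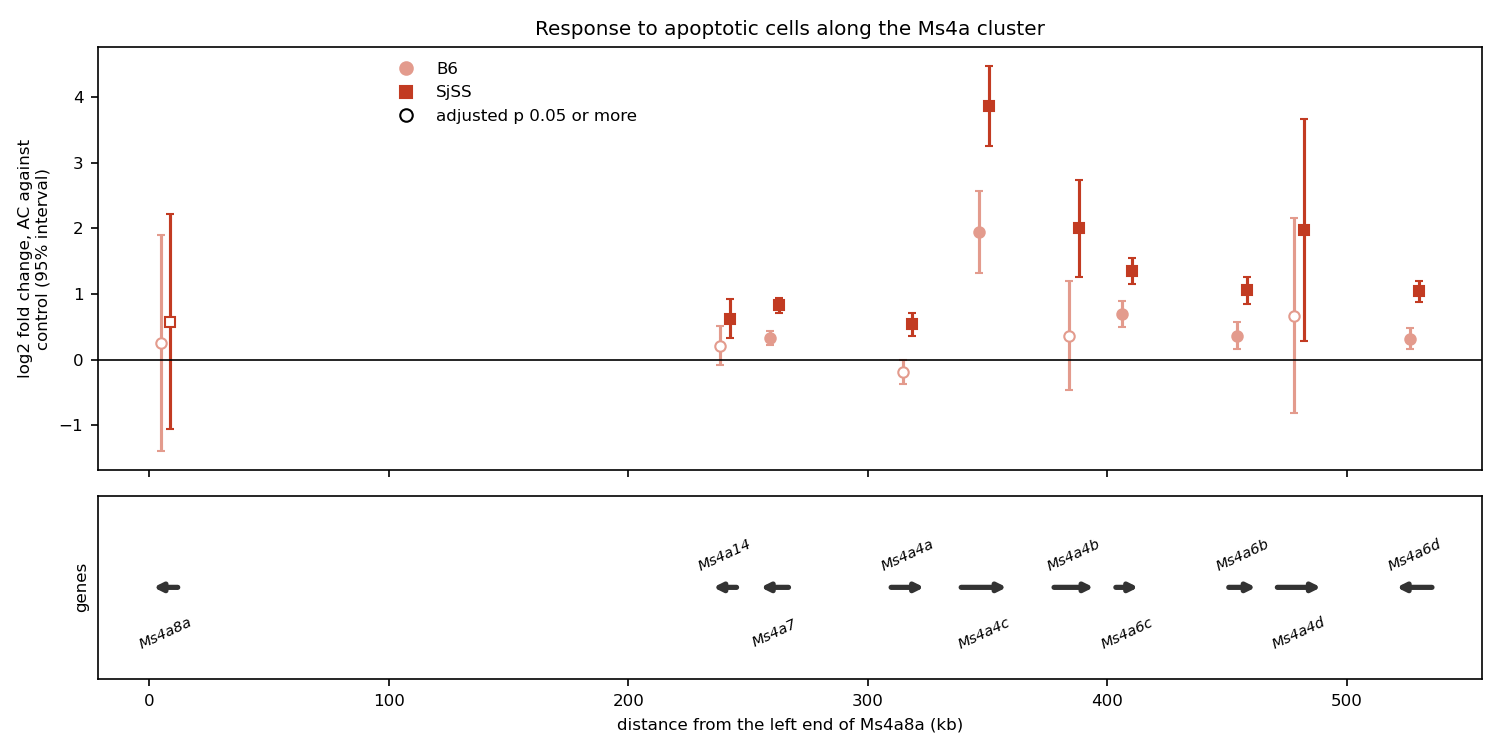
Log2 fold change of AC against control samples with its 95% interval (upper panel, B6 circles, SjSS squares, open where the adjusted p is 0.05 or more) for the 10 genes in their order along the cluster (lower panel, arrows show strand, distance in kb from the left end of Ms4a8a). The SjSS estimate lies above the B6 estimate for all 10 genes, and Ms4a4c has the largest value in both strains.

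Whether the response to AC differed between the strains was tested with the interaction of strain and AC. It was positive past the threshold for 7 of the 10 members (Ms4a4a, Ms4a4b, Ms4a4c, Ms4a6b, Ms4a6c, Ms4a6d and Ms4a7) and negative for none, while 19.6% of all tested genes were positive. With the fold threshold, Ms4a4b and Ms4a4c were called, where 4.76% of all genes were. The SjSS response of Ms4a4c was 3.78 times that of B6 (2.09 to 6.84, log2 1.92 ± 0.41 SE, edgeR adjusted p = 0.00103), and that of Ms4a4b 3.11 times (1.44 to 6.75, edgeR adjusted p = 0.0206). For Ms4a4b the call was lost without B6 control replicate 3 (log2 1.48), without B6 AC replicate 1 (1.46) or without SjSS control replicate 3 (1.47). The 5 other genes had ratios of similar size, 1.65 for Ms4a4a (1.39 to 1.97), 1.64 for Ms4a6d (1.41 to 1.91), 1.62 for Ms4a6b (1.33 to 1.98), 1.58 for Ms4a6c (1.3 to 1.92) and 1.41 for Ms4a7 (1.27 to 1.58). Ms4a14 had 1.33 (0.992 to 1.77, edgeR adjusted p = 0.120), an interval that still holds ratios like those of the genes that passed.

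Markers of other cells also moved with AC, and some with CpG. A list of mast-cell and basophil genes, of which 3 were in the table, summed to 5.27 to 6.29 CPM in SjSS AC samples and to at most 1.36 CPM in any sample of the other groups. Most of it was Hdc, histidine decarboxylase, with an average of 4.74 CPM. In B6, Hdc averaged 0.0317 CPM in control, 0.359 CPM after AC and 0.753 CPM after CpG. Dendritic-cell genes summed to 2.61 to 3.45 CPM in SjSS AC samples and to at most 2.16 CPM in the rest. Of these genes, Xcr1 averaged 2.13 CPM in SjSS AC, 0.909 CPM in SjSS CpG and 0.279 CPM in SjSS control. Its averages in B6 were 0.148 CPM in control, 0.426 CPM after AC and 0.959 CPM after CpG. Clec9a, which marks the same dendritic cells, averaged 0.536 CPM in SjSS control and 0.263 CPM in SjSS AC, and Flt3 at most 0.0907 CPM in any group. The macrophage list itself was at 18027 to 18751 CPM after AC in SjSS, against 15105 to 15766 CPM in control. In B6 it was at 15654 to 16617 CPM after AC, against 17654 to 18389 CPM in control. Most of it was Lyz2, which averaged 10204 CPM in SjSS AC and 9515 CPM in B6 AC. Of its 8 genes, 5 rose and 1 fell after AC in SjSS, and 2 rose and 4 fell in B6. By the same test, 28.6% of all genes rose and 29.4% fell in SjSS, and 20.0% rose and 18.3% fell in B6. The part of these differences in the Ms4a results was not tested.

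The second question was the response to CpG. Here 7 of the 10 members rose in each strain, where 28.1% of all genes rose in B6 and 27.8% in SjSS, and none fell. In B6 these were Ms4a4a, Ms4a4b, Ms4a4c, Ms4a6b, Ms4a6c, Ms4a6d and Ms4a7, and in SjSS Ms4a14 took the place of Ms4a4b. With the fold threshold, 4 were called in B6 (Ms4a4b, Ms4a4c, Ms4a6c and Ms4a6d, against 5.86% of all genes) and 2 in SjSS (Ms4a4c and Ms4a6c, against 4.81%). The median log2 fold change of the members was 1.12 in B6 and 0.69 in SjSS, beside -0.04 and -0.01 over all genes.

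Ms4a4c again had the largest change, with 23.5, 36.1 and 35.1 CPM in B6 and 45.5, 27.4 and 49.6 CPM in SjSS after CpG. These levels were 7.15-fold (4.65 to 11, edgeR adjusted p = 1.03e-07) and 5.62-fold (3.72 to 8.50, edgeR adjusted p = 4.54e-07) above control. Ms4a6c reached 699, 652 and 643 CPM in B6 and 578, 439 and 585 CPM in SjSS, 3.92-fold (3.40 to 4.52) and 3.19-fold (2.77 to 3.68) above control. The second CpG sample of SjSS was the lowest of its group for both genes, and for Ms4a4c it lay within the range of the B6 CpG samples.

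Ms4a6d had 557, 524 and 502 CPM in B6 and 390, 354 and 421 CPM in SjSS, rises of 3.05-fold (2.73 to 3.40) and 2.44-fold (2.19 to 2.72), the second of which is log2 1.29 and so just under the fold threshold. Ms4a6b had 158, 143 and 144 CPM in B6 and 149, 111 and 146 CPM in SjSS, rises of 2.37-fold (2.05 to 2.74) and 1.74-fold (1.51 to 2.01). Ms4a7 responded less, with 621, 656 and 658 CPM in B6 and 698, 668 and 643 CPM in SjSS, rises of 1.3-fold (1.20 to 1.40) and 1.5-fold (1.39 to 1.62). All edgeR adjusted p for these 3 genes were 5.87e-06 or less, the value of Ms4a7 in B6.

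Ms4a4a showed the clearest strain difference under CpG. Its levels were 184, 184 and 157 CPM in B6 and 89.6, 82.9 and 102 CPM in SjSS, with no overlap. CpG raised it 1.99-fold in B6 (1.76 to 2.25, edgeR adjusted p = 6.94e-09) and 1.32-fold in SjSS (1.16 to 1.49, edgeR adjusted p = 0.000598). Ms4a4b had 0.585, 0.692 and 0.717 CPM in B6 and 0.495, 0.321 and 0.708 CPM in SjSS. Its rise was 2.62-fold in B6 (1.52 to 4.52, edgeR adjusted p = 0.00355), a call lost without B6 control replicate 2, and 1.44-fold in SjSS (0.835 to 2.48, edgeR adjusted p = 0.253). Ms4a14 was at 33.2, 40.3 and 46.4 CPM in B6 (1.05-fold, 0.853 to 1.29, edgeR adjusted p = 0.701) and 78.2, 65.3 and 59.7 CPM in SjSS (1.42-fold, 1.16 to 1.74, edgeR adjusted p = 0.00520). Ms4a4d and Ms4a8a passed no test of CpG.

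The interaction of strain and CpG passed the threshold for 1 member, Ms4a4a, where 5.85% of all genes did in either direction, and no member was called with the fold threshold, against 0.614%. Its response in SjSS was 0.662 times that in B6 (0.556 to 0.789, log2 -0.59 ± 0.12 SE, edgeR adjusted p = 0.00575). Estimates were also below 1 for Ms4a6b (0.734, 0.601 to 0.896, edgeR adjusted p = 0.0634), Ms4a6d (0.801, 0.689 to 0.931, edgeR adjusted p = 0.0784) and Ms4a6c (0.815, 0.670 to 0.991, edgeR adjusted p = 0.222), none of which passed. For Ms4a4b and Ms4a14, whose response passed in 1 strain only, the difference between strains did not pass (edgeR adjusted p = 0.384 and 0.230).

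**Figure D3:**
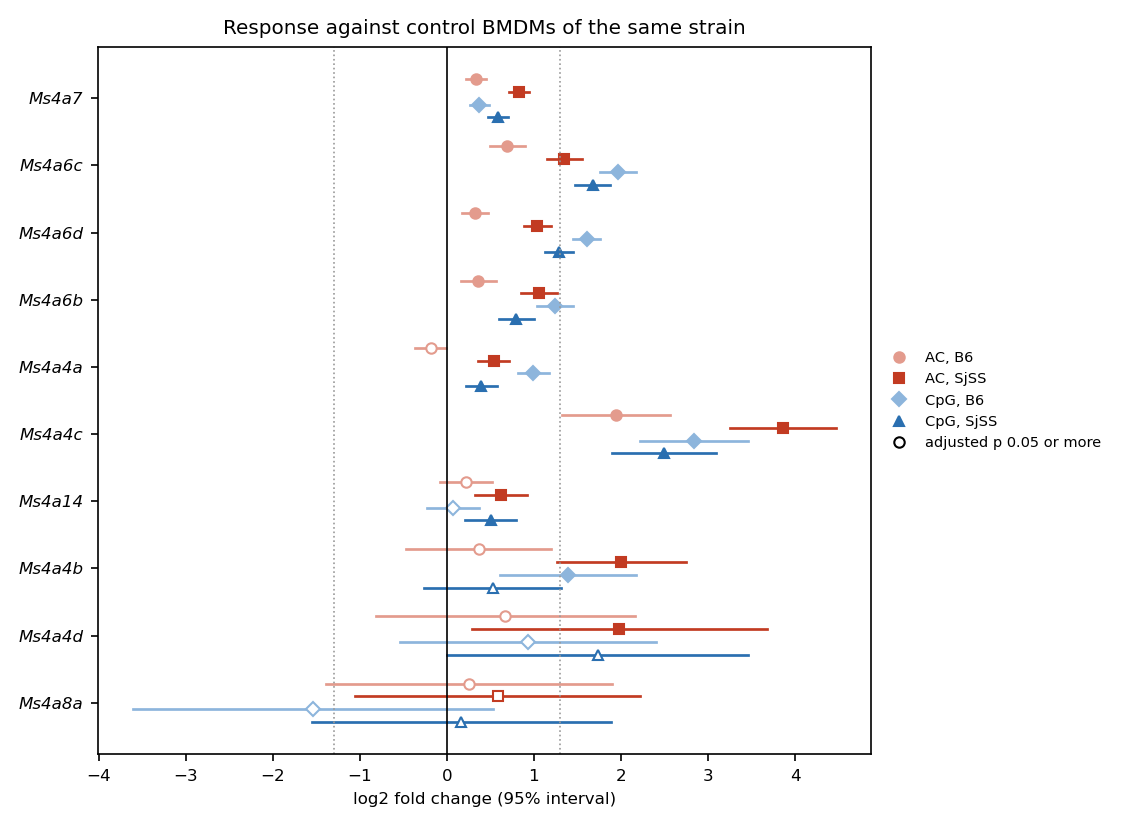
Log2 fold change against control samples of the same strain, with 95% intervals, for AC and CpG in B6 and SjSS. Filled symbols have an adjusted p under 0.05 and dotted lines mark the fold threshold of 1.3. The SjSS AC value exceeds the B6 AC value for each gene, and the B6 CpG value exceeds the SjSS CpG value for Ms4a4a, Ms4a4b, Ms4a4c and the 3 Ms4a6 genes.

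Directly between strains, control BMDMs differed little. Ms4a6b was 1.24-fold higher in SjSS (1.08 to 1.43, edgeR adjusted p = 0.0302), Ms4a4a was lower at 0.789-fold (0.697 to 0.893, edgeR adjusted p = 0.00868) and so was Ms4a7 at 0.896-fold (0.829 to 0.968, edgeR adjusted p = 0.0434). These 3 of 10 compare with 19.6% of all genes, and no member was called with the fold threshold, against 2.01%. None of the 3 kept an adjusted p under 0.05 whenever 1 sample was left out. It was lost in 5 of 6 fits for Ms4a6b (up to 0.0910 by edgeR, without SjSS control replicate 1), in 5 of 6 for Ms4a7 (up to 0.170, without SjSS control replicate 3), and for Ms4a4a without B6 control replicate 2 or SjSS control replicate 3 (0.0541 and 0.0542). Ms4a4c was above B6 in every control sample of SjSS, but 1.65-fold (1.05 to 2.60, edgeR adjusted p = 0.113) did not pass.

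After AC, 8 of the 10 members were higher in SjSS than in B6, all but Ms4a4d and Ms4a8a, where 24.0% of all genes were. The largest differences were those of Ms4a4c, 6.25-fold (4.23 to 9.24, edgeR adjusted p = 1.45e-07), and Ms4a4b, 4.37-fold (2.61 to 7.32, edgeR adjusted p = 6.21e-05), the 2 members called with the fold threshold, against 6.24% of all genes. Ms4a6b followed at 2.01-fold (1.75 to 2.32) and Ms4a14 at 1.66-fold (1.36 to 2.04). Ms4a4a, Ms4a6c, Ms4a6d and Ms4a7 were 1.27 to 1.55-fold higher, and for all 8 genes the 3 SjSS samples lay above the 3 of B6. The share of all genes that separate in this way was not counted.

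After CpG, 3 members were lower in SjSS than in B6 and 1 was higher. Ms4a4a was at 0.523 of its B6 level (0.462 to 0.592, edgeR adjusted p = 3.84e-07), Ms4a6d at 0.736 (0.662 to 0.819, edgeR adjusted p = 0.000255) and Ms4a6c at 0.804 (0.700 to 0.922, edgeR adjusted p = 0.0241). The Ms4a6c difference no longer passed without SjSS CpG replicate 2 (edgeR adjusted p = 0.134) or B6 CpG replicate 1 (0.0853). Only Ms4a14 was higher, 1.69-fold (1.38 to 2.08, edgeR adjusted p = 0.000801). These 4 of 10 compare with 19.7% of all genes, and no member was called with the fold threshold, against 2.61%. Ms4a4a was thus lower in SjSS in control and CpG samples and higher after AC, and every one of these differences was free of overlap between samples.

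**Figure D4:**
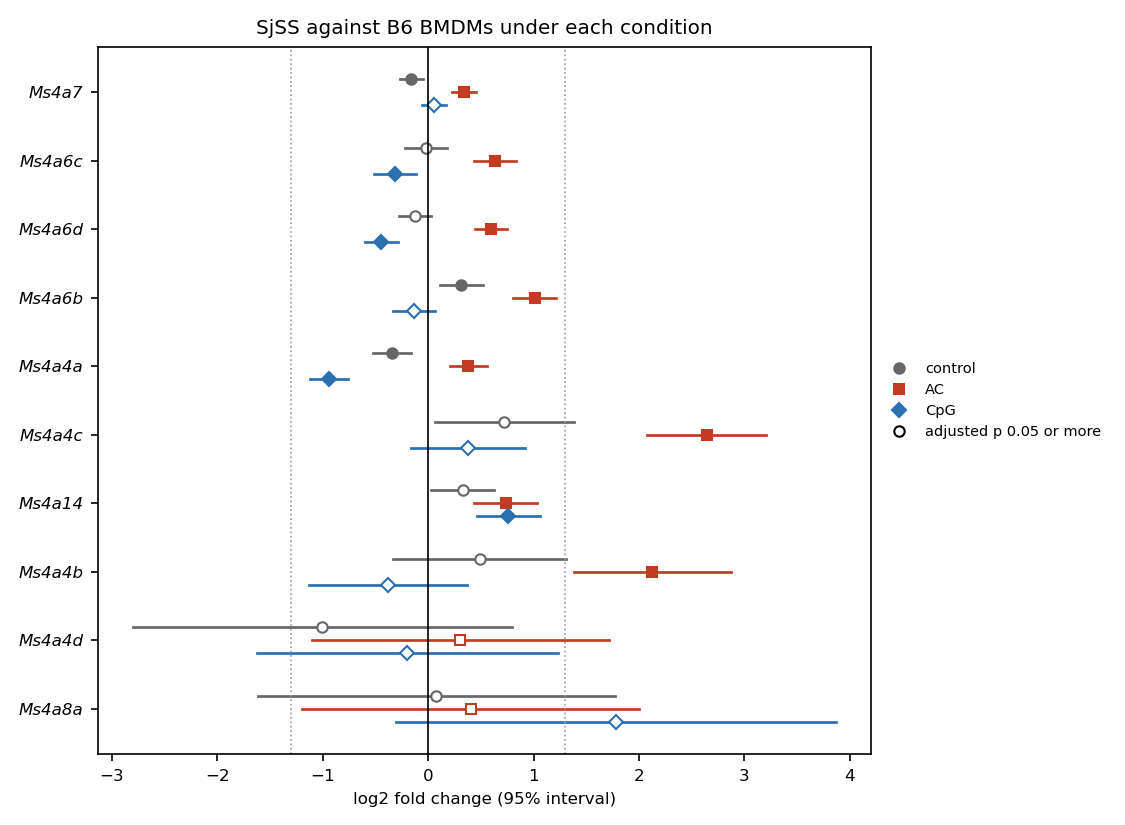
Log2 fold change of SjSS against B6 with 95% intervals in control (circles), AC (squares) and CpG (diamonds) samples. Symbols are filled where the adjusted p is under 0.05. The AC value is the highest of the 3 for every gene but Ms4a14 and Ms4a8a, and the CpG value of Ms4a4a is at -0.94.

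AC and CpG samples of the same strain were also compared, a comparison added after the values had been seen. In B6, 6 members were lower after AC than after CpG (Ms4a4a, Ms4a4b, Ms4a4c, Ms4a6b, Ms4a6c and Ms4a6d), where 22.4% of all genes were, and none was higher or called with the fold threshold, which 7.11% of all genes were. In SjSS, Ms4a4b, Ms4a4c, Ms4a6b and Ms4a7 were higher after AC, where 25.7% of all genes were, and Ms4a6c and Ms4a6d were lower, where 26.5% were. Ms4a4b and Ms4a4c were called, against 5.38% of all genes. Some of these members no longer passed when 1 sample was left out. These were Ms4a4b in B6 (edgeR adjusted p up to 0.111, without B6 AC replicate 1, B6 CpG replicate 2 or B6 CpG replicate 3) and, in SjSS, Ms4a6b (up to 0.197, without SjSS AC replicate 3 or SjSS CpG replicate 2), Ms4a6d (up to 0.0717, without SjSS AC replicate 1 or SjSS CpG replicate 3) and Ms4a6c (0.0532, without SjSS AC replicate 2). For Ms4a4c the ratio of AC to CpG was 0.537 in B6 (0.366 to 0.789, edgeR adjusted p = 0.00903) and 2.59 in SjSS (1.79 to 3.74, edgeR adjusted p = 0.000160). That SjSS value fell under the fold threshold without SjSS CpG replicate 2 (log2 1.15) or without SjSS AC replicate 3 (1.29). Ms4a6c and Ms4a6d were at 0.413 and 0.411 of the CpG level in B6, just short of the fold threshold at log2 -1.28 each, and at 0.799 and 0.843 in SjSS. Ms4a4a was at 0.442 of the CpG level in B6 (0.390 to 0.500) and at 1.1 in SjSS (0.974 to 1.25, edgeR adjusted p = 0.181).

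Members also differed in which other genes they followed over the 18 samples. Among genes outside the family, Ms4a4c was most like H2-T24 (Pearson r = 0.988 of log2 CPM), Ifi44 (0.983) and Fgl2 (0.983), of which Ifi44 is an interferon-induced gene. Ms4a6c was most like Pgap2 (0.993), the lipopeptide receptor gene Tlr1 (0.992) and Il12b (0.990), a cytokine subunit, and Ms4a6d most like Nfkbia (0.990), the inhibitor of NF-kB. The closest for Ms4a7 was Rab20 (0.986), for Ms4a6b Ascc3 (0.976), for Ms4a4a Ogdh (0.945), for Ms4a4b Sass6 (0.938) and for Ms4a14 Zscan29 (0.934). Nothing matched Ms4a4d or Ms4a8a above 0.757. Within the family, Ms4a6c and Ms4a6d were most alike (0.985), followed by Ms4a4c and Ms4a6b (0.931). These samples share groups, so the values describe a common pattern over 6 group means and carry no test.

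Of the rest of the family, Ms4a1 had 72 reads in all 18 samples together and was not tested. Tmem176a and Tmem176b, relatives on chromosome 6 with the same membrane topology, were tested in the same way. After AC they rose in SjSS, by log2 0.85 ± 0.12 and 0.79 ± 0.11 (SE), with edgeR adjusted p = 5.90e-06 and 4.95e-06, while in B6 their estimates were -0.17 ± 0.12 and -0.02 ± 0.11 and did not pass. The interaction was 1.01 ± 0.17 for Tmem176a and 0.81 ± 0.16 for Tmem176b, edgeR adjusted p = 9.97e-05 and 0.000433. CpG raised both in both strains, by log2 1.06 to 1.13. These neighbours overlap each other on opposite strands at their ends, so a few of their reads may be mixed.

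Known or proposed partners of MS4A proteins were read as a list of 9, of which 8 were tested. After AC, none of the 8 rose and 3 fell in B6, where 20.0% of all genes rose and 18.3% fell. In SjSS, 2 rose and 1 fell, where 28.6% of all genes rose and 29.4% fell. Fcer1g, the signalling chain of Fc receptors, rose in SjSS from 302, 291 and 292 CPM to 465, 475 and 454 CPM, log2 0.66 ± 0.05, but in B6 it was at 286, 285 and 279 CPM in control and 293, 321 and 304 CPM after AC. Its interaction was 0.55 ± 0.07 (edgeR adjusted p = 6.31e-06). Clec7a, which encodes Dectin-1, fell in B6 from 356, 418 and 380 CPM to 240, 261 and 235 CPM (log2 -0.65 ± 0.09, edgeR adjusted p = 1.27e-05). In SjSS it was at 253, 262 and 209 CPM in control and 259, 296 and 277 CPM after AC (log2 0.20 ± 0.09, edgeR adjusted p = 0.0592).

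The interaction for Clec7a was positive, 0.85 ± 0.13 (edgeR adjusted p = 3.01e-05), as for its partner Ms4a4a, and that for the tetraspanin Cd9 was 0.72 ± 0.21 (edgeR adjusted p = 0.0103). With CpG, Clec7a fell in B6 (log2 -0.68 ± 0.09) and in SjSS (-0.33 ± 0.09) while Ms4a4a rose in both. Trem2 fell with CpG by about the same amount in both strains (log2 -0.79 ± 0.08 and -0.81 ± 0.08) and did not pass the test with AC (0.00 ± 0.07 in B6 and -0.17 ± 0.07 in SjSS). Tyrobp, its adaptor, stayed within 0.17 of control on the log2 scale in all 4 responses, and its change of 0.17 ± 0.06 with AC in SjSS passed (edgeR adjusted p = 0.0280). Tnfrsf18, which encodes GITR, was under 0.4 CPM in every sample, and it fell with AC in SjSS (log2 -2.14 ± 0.61, edgeR adjusted p = 0.00526). Vsig4, the partner of MS4A6D, had 0.524 to 2.31 CPM, and among the 4 responses only its fall with CpG in B6 passed (log2 -1.22 ± 0.37, edgeR adjusted p = 0.00854). The tetraspanin Cd81 fell with AC in B6 (log2 -0.57 ± 0.17, edgeR adjusted p = 0.0112).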

How the data were processed

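RNA from 18 BMDM cultures (2 strains, 3 conditions, 3 samples each) was sequenced. Per the labels and methods, the authors aligned reads to mm10 with STAR and quantified genes in Partek, so the deposited values are estimated counts, 41.1% of them not whole (tolerance 1e-06), for 20615 genes with a total of at least 10. The submitters' processing notes also name DESeq2 3.13. Counts were rounded here and all 18 samples were fitted in edgeR 4.0.16 (R 4.3.3) with TMM scaling, 1 mean per group and the quasi-likelihood test. Of the genes, 15789 passed filterByExpr. P-values were adjusted by Benjamini-Hochberg within each of 9 comparisons plus 2 added after the values were seen. A gene was counted as changed at adjusted p under 0.05 and as called with a log2 fold change over 1.3 in size besides. SE is the log2 fold change over the square root of F, and intervals are 95%. The script was tested on simulated data. Likeness is Pearson's r of log2 CPM (prior count 2), and the 3 genes most like each member were taken. Alternatives were DESeq2 1.42.0, its size factors, no filter, other fold thresholds, a replicate block, summed rows and leaving out each sample. The study's figure legend gives 3 mice per strain for the sequenced BMDMs, so 1 mouse may have supplied all 3 conditions. Which samples share a mouse is not stated per sample. The main fit treats all samples as unpaired, so p-values measure the spread between these samples. The members, the lists and the tests were chosen with earlier results of these data known. Exon lengths, overlaps and shared stretches came from GENCODE M21 and promoters from RefSeq. At a depth of 30688336 to 57139662 reads, 1 read is 0.018 to 0.033 CPM before TMM scaling, which limits Ms4a4b, Ms4a4d and Ms4a8a.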

Additional observations from a re-analysis of the deposited data

Results flagged for a closer look

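The response to AC differed between the strains by the test of the interaction of strain and AC for 7 members, and that to CpG for 1. On the log2 scale, the SjSS response to AC exceeded the B6 response by 1.92 for Ms4a4c, 1.64 for Ms4a4b, 0.72 for Ms4a4a, 0.72 for Ms4a6d, 0.70 for Ms4a6b, 0.66 for Ms4a6c and 0.50 for Ms4a7. For Ms4a4a the SjSS response to CpG fell short of that of B6, with an interaction of -0.59. Ms4a4a was the 1 member with both differences, and they had opposite signs. The value of Ms4a4b rests on few reads and lost its call without any 1 of 3 samples. Groups of 3 are too small for a check of single outlying samples.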

How the results depend on the processing

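Without a fold threshold the members that passed in either direction were 5 and 9 for AC in B6 and SjSS, 7 and 7 for CpG, 3, 8 and 4 for the strain difference in control, AC and CpG samples, 7 and 1 for the interactions with AC and CpG, and 6 and 6 for AC against CpG in B6 and SjSS. With a threshold of 2 on the log2 scale they were 0 and 2 for AC, 1 and 1 for CpG in B6 and SjSS, 0 for the interaction with AC and 0 for AC against CpG in SjSS. The 2 for AC in SjSS were Ms4a4c and, only just past the threshold at log2 2.00, Ms4a4b. Both also passed it between AC samples of the strains (log2 2.64 and 2.13). Shares over all genes at this threshold were not counted. For AC against CpG in B6, DESeq2 and its size factors in edgeR each called 2 (Ms4a6c and Ms4a6d, at log2 -1.3 and -1.31), where none was called before. Leaving out 1 sample gave 3 to 4 calls for AC in SjSS, 3 to 4 for CpG in B6, 2 to 4 for CpG in SjSS (4 without SjSS CpG replicate 2), 1 to 2 for the interaction with AC, 0 to 2 for AC against CpG in B6 (2 without B6 AC replicate 2, B6 AC replicate 3 or B6 CpG replicate 3) and 0 to 2 in SjSS (1 without SjSS AC replicate 3, 0 without SjSS CpG replicate 2). The Ms4a6d call for CpG in SjSS appeared without SjSS control replicate 1 (log2 1.32).

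Changes of sign were seen in values that had not passed the test, except for Ms4a6b in 2 comparisons with the summed rows. When 1 sample was left out, Ms4a8a ranged from -0.23 to 0.79 for AC in B6, -0.49 to 0.99 for AC and -0.78 to 0.67 for CpG in SjSS, -0.27 to 0.61 and -0.67 to 0.89 between control and between AC samples of the strains, -0.74 to 0.81 for the interaction with AC and -0.64 to 1.36 for AC against CpG in SjSS. Ms4a4d ranged from -1.69 to 0.52 between CpG samples of the strains, -0.69 to 1.52 for the interaction with CpG, -0.59 to 0.47 and -0.24 to 1.74 for AC against CpG in B6 and SjSS. Between control samples, Ms4a4b ranged from -0.042 to 0.71 and Ms4a6c from -0.075 to 0.017, and for CpG in B6 Ms4a14 ranged from -0.042 to 0.19. With rows summed to Ms4a4b, Ms4a4c and Ms4a4d, the sum had 0.69 between control and 0.36 between CpG samples and -0.33 for the interaction with CpG, opposite in sign to Ms4a4d in all of these and to Ms4a4b in the second. The sum of the 3 Ms4a6 genes had -0.0046 between control samples and -0.21 for AC against CpG in SjSS, opposite to Ms4a6b, which had passed both. Over all single-gene values, leaving out 1 sample gave 733 with the same sign and side of the threshold, 9 newly called, 12 no longer called and 26 of changed sign, and the other alternatives gave 873, 61, 13 and 8. The other alternatives include dropping or raising the fold threshold. Dropping it can only add calls and raising it can only remove them, so part of the 61 and 13 follows by definition.

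Replicate numbers did not meet the rule for pairing, that every same-numbered correlation be over 0.1. Failing this strict rule does not show that same-numbered samples came from separate mice. Of 18 correlations between deviations of same-numbered samples of 1 strain, 14 were over 0.1 (median 0.24, range -0.32 to 0.64), against 5 of 36 for samples of the same strain with different numbers (median -0.15), and 13 of 18 samples correlated best with their own number. With the number as a replicate block, calls over all genes went from 705 to 723 for AC in B6 and from 97 to 114 for the interaction with CpG, the largest relative change, and the count of members called did not change. Under this block Ms4a8a changed sign for CpG in SjSS (-0.058) and for the interaction with AC (-0.037). The block was set within each strain, except for the strain differences, where samples of both strains with the same number shared it. Same-numbered samples of different strains had a median correlation of -0.0072. For the strain differences the block therefore says nothing about pairing within a strain. DESeq2 gave no adjusted p for Ms4a4d and Ms4a8a in the interaction with CpG. The cause of these changes was not tested.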
